A study of Homo sapiens with 64 samples.

Results

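RNA of HEK293 cells sorted into the lowest and the highest eGFP bins of a massively parallel reporter assay was compared, sequence by sequence, for candidate RNA switches and their scrambled controls. HEK293 cells derive from human embryonic kidney and take up lentiviral reporters readily. In the functional screen each reporter carried, downstream of the eGFP coding sequence, 1 of 3750 candidates or 1 of 3750 scrambled controls, each control sharing its candidate's name and base composition. Pooled cells were infected with the lentiviral library, selected with puromycin and sorted by eGFP relative to mCherry, which is encoded by the same reporter and corrects for its expression, from bin 1 (lowest) to bin 8 (highest). The 8 RNA libraries of bins 1, 2, 7 and 8 from 2 replicate sorts were used, out of 64 libraries in the series, and bins 1 and 2 (4 libraries) were set against bins 7 and 8 (4 libraries). All 8 share cell line, library and selection, and differ in bin and sort. It is not stated whether the sorts began from separate cultures, so p-values measure the spread between these libraries, which may be technical. Reporter sequences alone were counted, so the cell line could not be checked from marker genes.

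The level of a reporter RNA depends on how much is made and how fast it decays. Elements of 3' untranslated regions act on decay and on translation. AU-rich elements recruit decay factors, and microRNAs pair with their targets through a short seed near the microRNA's 5' end and bring Argonaute complexes, which promote removal of the poly(A) tail and repress translation. In pooled cells, fewer cells carrying a reporter in a bin and less RNA in each of those cells cannot be told apart from RNA counts, so gDNA of the same bins is given beside the results.

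The 4 low-bin libraries held 2165567 to 2435425 counts and the 4 high-bin libraries 851673 to 1949462. Bin 8 was the shallowest, with a median of 120 and 89 counts per sequence in the first and second sort, against 191 to 248 in the other 6 libraries. Candidates took 46.7% to 48.4% of the counts. The log2 scaled counts of the 2 sorts correlated across sequences at r = 0.769 in bin 1, 0.812 in bin 2, 0.867 in bin 7 and 0.783 in bin 8. Bins of 1 group were less alike than sorts of 1 bin, with r between 0.602 and 0.683 for bins 1 and 2 and between 0.634 and 0.721 for bins 7 and 8. Between the groups r was 0.632 to 0.702 for bins 1 and 7 and 0.592 to 0.644 for bins 2 and 7. It was 0.456 to 0.519 for bins 1 and 8 and 0.288 to 0.377 for bins 2 and 8. Bin 1 was therefore about as close to bin 7 as to bin 2, its partner in the low group.

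The microRNAs whose seed matches recur in the results are shown first, from RefSeq on GRCh38.p14, with the seed (bases 2 to 8) in capitals, since a match in a candidate is its reverse complement. MIR17 and MIR19A lie on the plus strand in the miR-17-92 cluster, and MIR30A lies on the minus strand.
hsa-miR-17-5p (chr13:91350618-91350640): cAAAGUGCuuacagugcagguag
hsa-miR-19a-3p (chr13:91350939-91350961): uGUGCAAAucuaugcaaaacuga
hsa-miR-30a-5p (chr6:71403595-71403616): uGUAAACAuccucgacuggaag

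The stretches of candidates below, 30 bases each and written as DNA 5' to 3', belong to candidates named below for the lowest difference from their control, or for the lowest change among called candidates of a motif list with a mean of at least 50 counts. Capitals mark matches, which are GCACTTT for the miR-17 family, TTTGCAC for miR-19, TGTTTAC for miR-30, and TTATTTA followed by 2 bases that are each A or T for the AU-rich nonamer. Only the strand listed for a candidate was searched. Candidates carry transcript identifiers, of which none of 3055 was in the gene table used here, so genes and genome positions are not given. Positions count from 1 at the 5' end of the candidate.
ENST00000393409_part_27, bases 25 to 54: ggcgcaaGCACTTTagcagtatcTGTTTAC
ENST00000450053_part_2, bases 136 to 165: gcggccgcagcaGCACTTTTTGCACagtct
Candidate with 3 seed matches, bases 1 to 30: GCACTTTGTTTACttgtTTTGCACagacgt
Candidate with a miR-17 match, bases 111 to 140: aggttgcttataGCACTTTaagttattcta
Candidate with a miR-30 match, bases 60 to 89: ttggttgtcttaTGTTTACcaataaataaa
Candidate with a nonamer, bases 53 to 82: tatttattttgTTATTTATTtcagtctgga
The same candidate, bases 130 to 159: atcagggccaagTTTGCACtctccccaatg

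The change of a sequence is the log2 ratio of its RNA in bins 7 and 8 to that in bins 1 and 2, with each library scaled by its median, so a value below 0 means more of its RNA in cells of low eGFP. Of 7378 sequences with a mean of at least 10 counts per library, 526 (7.13%) were lower and 403 (5.46%) higher in the high bins at an adjusted p under 0.05, by edgeR's quasi-likelihood test with Benjamini-Hochberg adjustment. Candidates gave 247 lower and 212 higher of 3660 tested (6.75% and 5.79%), with 90 of 3750 under the minimum. Scrambled controls gave 279 lower and 191 higher of 3718 (7.50% and 5.14%), so calls were about as frequent in sequences without a native order of bases, a difference that was not tested. The candidates' median change was 0.03, with quartiles at -0.57 and 0.65 and a median standard error of 0.45. The count of calls rested on bin 8: without its library of the first sort 198 sequences were lower and 120 higher, and without that of the second sort 255 and 157.

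Each candidate was then set against its own control, which fixes base composition and leaves the order of bases to differ. In 3646 pairs with both sequences tested, the candidate's change was below its control's in 127 (3.48%) and above it in 163 (4.47%) at an adjusted p under 0.05 from edgeR. The median difference was 0.12 and its median standard error 0.65. Of the 127 lower pairs, 55 had the candidate called lower and the control not called higher. In 38 the control was called higher and the candidate not called lower, in 3 both held and in 31 neither. Of the 163 higher pairs, 43 had the candidate called higher and the control not called lower. In 73 the control was called lower and the candidate not called higher, in 7 both held and in 40 neither. Changes of candidates and their controls correlated at r = 0.273 and rho = 0.263 over 3646 pairs, which share libraries and base composition. Without bin 8 of the first or second sort the pairs called were 50 lower and 53 higher, or 59 and 68. Without bin 7 of the first or second sort they were 103 and 103, or 68 and 99.

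ENST00000393409_part_27, with a miR-17 and a miR-30 match, had the lowest difference from its control. Its scaled RNA counts, given here and later for the first and then the second sort, were 258 and 227 in bin 1, 263 and 230 in bin 2, 30.23 and 45.95 in bin 7 and 60.53 and 56.51 in bin 8. All 4 low-bin libraries lay above the 4 high-bin ones, and the rule for naming required such a lack of overlap. Of called candidates, 202 of 247 lower and 168 of 212 higher ones had no overlap, which calling them on the same 8 libraries favours. Among called controls these were 223 of 279 and 156 of 191. The share over all tested candidates is not given here, so the lack of overlap is description only. The control of ENST00000393409_part_27 ran the other way. The control had 82.61 and 48.48 in bin 1, 135.6 and 65.69 in bin 2, 698 and 308 in bin 7 and 315 and 310 in bin 8. The difference of -4.64 (SE 0.63, adjusted p = 2.65e-05 from edgeR) was made up of a change of -2.35 in the candidate (adjusted p = 0.00339) and 2.29 in the control (adjusted p = 0.00388). The candidate's gDNA change was -1.23.

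In ENST00000450053_part_2 a miR-17 match runs into a miR-19 match. It had 485 and 285 scaled counts in bin 1, 757 and 473 in bin 2, 85.82 and 52.51 in bin 7 and 51.22 and 37.67 in bin 8. The groups did not overlap, which the rule for naming required, and bin 2 was the highest in each sort. Its control had 172 and 183 in bin 1, 159 and 78.06 in bin 2, 385 and 334 in bin 7 and 511 and 274 in bin 8. The candidate's change was -3.12 (SE 0.45, adjusted p = 0.000652 from edgeR), and the difference from the control was -4.47 (SE 0.60, adjusted p = 2.65e-05). Its gDNA change was -2.74.

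ENST00000259569_part_11 and ENST00000370888_part_4 had the highest differences among called pairs with means of at least 50 counts and no overlap of the candidate's groups, and neither held the nonamer or a match of miR-17, miR-19, miR-30 or miR-92. The former, with a GC content of 30.6%, had 27.79 and 22.11 scaled counts in bin 1, 42.86 and 19.32 in bin 2, 75.09 and 96.82 in bin 7 and 225 and 115 in bin 8. Its control had 123 and 240 in bin 1, 109 and 250 in bin 2, 32.18 and 8.21 in bin 7 and 15.52 and 10.46 in bin 8. The control moved farther than the candidate, by -3.41 against 2.18, and the difference was 5.60 (SE 0.84, adjusted p = 9.67e-05 from edgeR). This difference rests on few reads of the control in the high bins. In bin 8, the shallowest bin, raw counts were below the scaled ones. The candidate's gDNA change was 0.31. ENST00000370888_part_4 had 67.59 and 97.81 in bin 1, 68.58 and 71.1 in bin 2, 138 and 130 in bin 7 and 360 and 297 in bin 8, where bin 8 stood above bin 7. Its control had 165 and 184 in bin 1, 351 and 478 in bin 2, 32.18 and 30.36 in bin 7 and 24.83 and 39.76 in bin 8. Here too the control moved farther, by -3.21 against 1.59, for a difference of 4.81 (SE 0.68, adjusted p = 4.84e-05), and the candidate's gDNA change was 0.66. The change of ENST00000259569_part_11 itself did not pass without bin 8 of the first sort (edgeR, adjusted p = 0.084). That of ENST00000370888_part_4 did not pass without bin 8 of the first or second sort (edgeR, adjusted p = 0.13 and 0.0953), nor without bin 1 of the first sort (0.0535) or bin 2 of either (0.0567 and 0.0574).

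**Figure D1:**
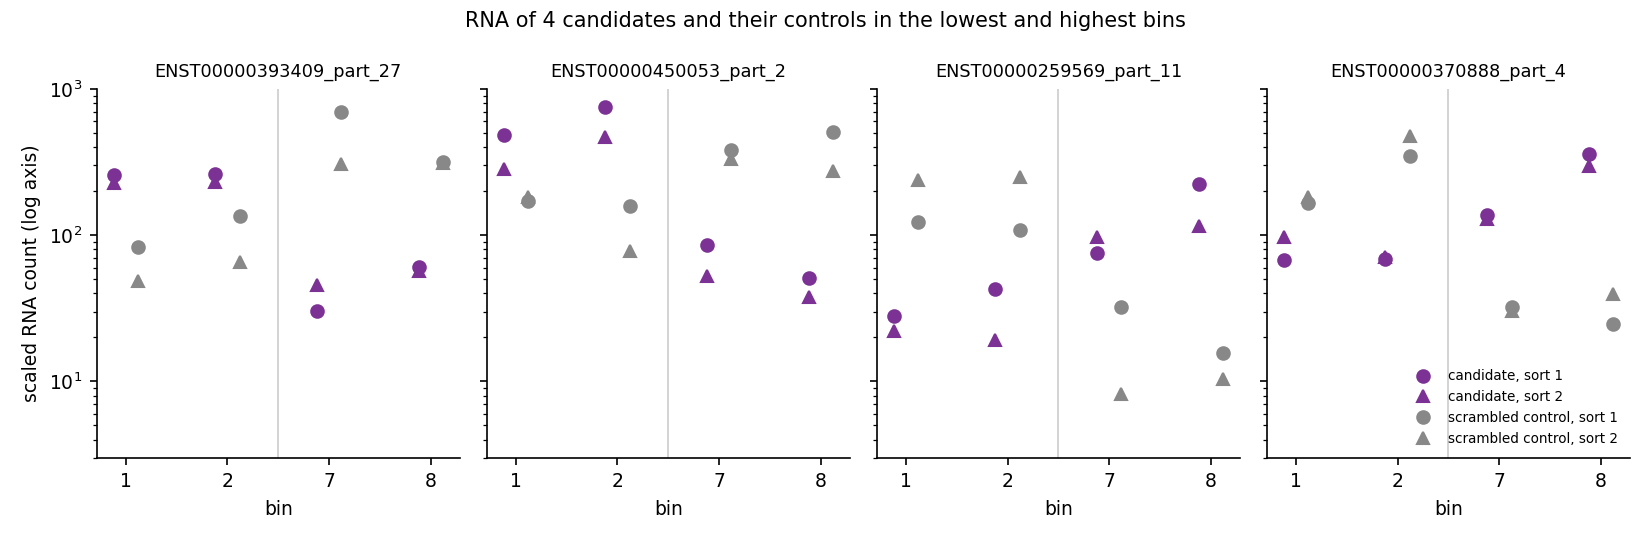
Scaled RNA count (log axis) of 4 candidates (purple) and their scrambled controls (grey) in bins 1, 2, 7 and 8, with circles for the first sort and triangles for the second. In each panel candidate and control move in opposite directions, which choosing extreme differences favours. The candidate's 4 low-bin libraries do not overlap its 4 high-bin libraries, which the rule for naming required.

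Motif lists were described by counts and medians, and no list was tested. Their counts are to be read beside the 6.75% lower and 5.79% higher of all candidates tested and the 3.48% lower and 4.47% higher of all pairs. A miR-19 match was in 67 candidates from 65 transcripts (1.79% of candidates and 1.36% of controls). Of 66 tested, 11 were lower and 2 higher (16.7% and 3.03%), at a median change of -0.38. Of 65 pairs, 11 were lower and 0 higher (16.9% and 0.0%), 44 lay below 0, and the median difference was -0.59 beside 0.12 over all pairs. The sorts gave -0.64 and -0.60, and gDNA gave -0.84. Of 51 scrambled controls that hold the same letters by chance, 5 were lower and 4 higher, at a median change of 0.06.

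The miR-17 family match was in 2.85% of candidates and 1.28% of controls, and 1 of these candidates was under the minimum. Of 106 tested, 17 were lower and 9 higher, and of 106 pairs 14 were lower and 7 higher, so shares in both directions were above those of all candidates and pairs. The median difference was -0.27, with -0.48 from the first sort and -0.10 from the other. For miR-30, 5 of 39 pairs were lower and 3 higher (12.8% and 7.69%), and the median was -0.40, with -0.50 from the first sort and 0.01 from the other. In gDNA this median was -0.31. Of 31 controls with the miR-30 match by chance, 1 was lower and 3 higher, at a median change of 0.59 beside -0.40 in the candidates. In both lists the first sort gave the lower median, and the difference between the sorts was not tested for a list.

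Other seed lists lay on either side of the median of all pairs. The median difference was -0.48 over 26 pairs for miR-26 (3 lower, 0 higher) and 0.01 over 50 pairs for let-7 (3 lower, 0 higher). For miR-92, from the same cluster as miR-17 and miR-19, it was 0.11 over 30 pairs (2 lower, 3 higher). It was 0.09 over 47 pairs for miR-1, a muscle microRNA, 0.12 over 52 pairs for miR-122, a liver microRNA, and 0.31 over 46 pairs for miR-27. Candidates with no match of the 16 families searched had a median difference of 0.15 over 2853 pairs, of which 79 were lower and 132 higher.

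By bin, RNA of miR-19 candidates relative to their controls was highest in bin 2. The median log2 ratio of candidate to control was 0.35 and 0.42 in bin 2, -0.42 and -0.64 in bin 1, -0.69 and -0.96 in bin 7 and -0.74 and -0.58 in bin 8. Bin 1 of the second sort therefore lay within the range of the high bins. In gDNA the ratio was 0.29 and 0.52 in bin 1 and 0.59 and 0.47 in bin 2, and between -1.02 and -0.46 in bins 7 and 8, so gDNA of bin 1 stayed on the side of bin 2. For the miR-17 family the RNA ratio was 0.13 and 0.00 in bin 2, -0.44 and -0.50 in bin 1 and between -0.67 and -0.49 in bins 7 and 8.

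Both a miR-17 and a miR-19 match were in 12 candidates from 11 transcripts, a list chosen after values were seen. Of these, 5 were lower and 1 higher, and against their controls 6 were lower and 0 higher, with 11 of 12 differences below 0 and a median of -1.95. In gDNA the median difference was -2.17, so the RNA median was not beyond that of gDNA. The 12 are members of the miR-19 list and of the miR-17 list, so the 3 lists are not separate results. Their 6 lower pairs are among the 11 lower pairs of the miR-19 list and the 14 of the miR-17 list. The median log2 RNA ratio to the control was -0.32 and -0.49 in bin 1, 0.87 and 1.39 in bin 2, -1.63 and -1.96 in bin 7 and -2.75 and -1.51 in bin 8. It was already at -1.85 and -1.33 in bin 6, which the calls did not use. The candidate with 3 seed matches is 1 of the 12 and had 188 and 168 scaled counts in bin 1, 451 and 689 in bin 2, 74.11 and 77.95 in bin 7 and 49.67 and 62.78 in bin 8. Its change was -2.49 (SE 0.48, adjusted p = 0.00388 from edgeR), and its control's was 0.35, while its gDNA change was -1.89. The difference of -2.85 (adjusted p = 0.00861) did not pass without bin 8 of the first sort (adjusted p = 0.063).

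**Figure D2:**
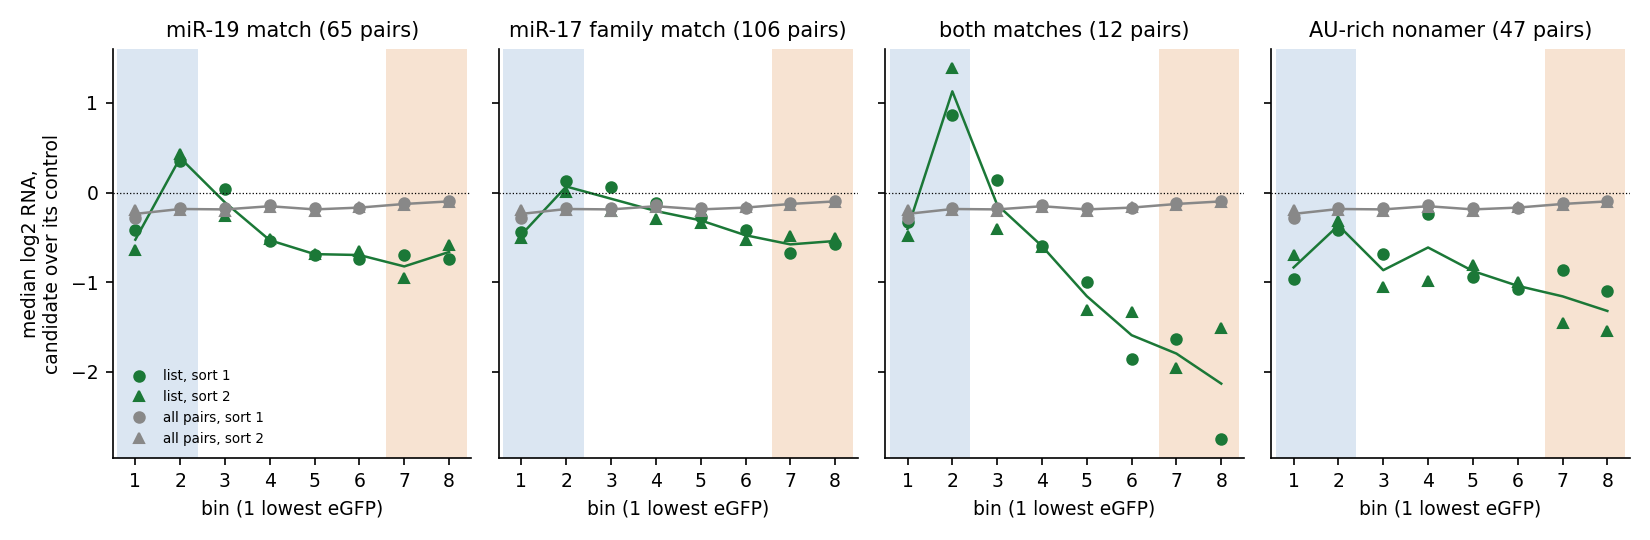
Median log2 ratio of scaled RNA count, candidate over its scrambled control, by bin for candidates with a miR-19 match, a miR-17 family match, both matches or an AU-rich nonamer (green) and for all pairs (grey). Circles and triangles are the first and second sort, lines join their mean, and bands mark the bins compared. The miR-19 list reaches 0.35 and 0.42 in bin 2, while all pairs stay between -0.29 and -0.09.

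The printed candidate with a miR-17 match had the lowest change among the called candidates of that list with a mean of at least 50 counts. It had 125 and 214 scaled counts in bin 1, 387 and 352 in bin 2, 12.68 and 26.26 in bin 7 and 13.97 and 29.3 in bin 8, with no overlap. Choosing the lowest changes of a list favours such a lack of overlap, and the high-bin counts of this candidate were few reads. Its change was -3.72 (SE 0.54, adjusted p = 0.000652 from edgeR), its gDNA change was -4.50, and its control's RNA change was 0.71 (adjusted p = 0.415). The printed candidate with a miR-30 match had 141 and 225 in bin 1, 478.5 and 230 in bin 2, 49.73 and 50.05 in bin 7 and 38.8 and 60.69 in bin 8, again without overlap. Its change was -2.43 (SE 0.47, adjusted p = 0.00388), the difference from its control was -2.36 (SE 0.57, adjusted p = 0.0112), and its gDNA change was -2.12.

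The 2 lowest called miR-92 candidates with a mean of at least 50 counts did not differ from their controls in the test (edgeR, differences -0.73 and -1.48, adjusted p = 0.456 and 0.135). Their own changes were -1.84 (adjusted p = 0.012) and -1.55 (adjusted p = 0.0484). The first, whose gDNA change was -3.47, did not pass without bin 2 of the second sort (adjusted p = 0.0566). The second was high in bin 1 alone, with 1245 and 1908 scaled counts against 394 and 296 in bin 2, 354 and 391 in bin 7 and 296.5 and 272 in bin 8. Its gDNA change was 0.88 and its RNA change in the middle bins 0.24, both opposite in sign to the change in the outer bins. It did not pass without any 1 of the libraries of bins 1, 7 and 8 (adjusted p between 0.0808 and 0.151), and without bin 2 of the second sort its difference from the control passed (-1.94, adjusted p = 0.0491).

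The AU-rich nonamer, the core of elements that promote decay, was in 53 candidates (1.41%, and 0.693% of controls), of which 47 were tested. Of these, 7 were lower and 2 higher (14.9% and 4.26%), and 7 of 47 pairs were lower and 1 higher (14.9% and 2.13%), at a median difference of -0.51. The sorts gave -0.64 and -0.63, and gDNA gave -1.11. RNA of the list was below that of its controls in every bin, with median log2 ratios between -0.97 and -0.32 in bins 1 and 2 and between -1.54 and -0.86 in bins 7 and 8, so the groups overlapped. Of 22 tested controls that hold the nonamer by chance, 1 was lower and 3 higher (4.55% and 13.6%). Their median change was 0.80, beside -0.18 in the candidates of the list.

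The candidate with a nonamer and a miR-19 match had 185.5 and 114 scaled counts in bin 1, 493 and 338.5 in bin 2, 18.53 and 27.9 in bin 7 and 12.42 and 52.32 in bin 8. Its control stayed between 259 and 661 in all 8 libraries. The candidate's own groups did not overlap, which choosing the lowest change favours, and its high-bin counts were few reads. Its change was -3.37 (SE 0.57, adjusted p = 0.0017 from edgeR), and the difference from the control was -3.64 (SE 0.65, adjusted p = 0.000674), with a gDNA change of -3.18. A second nonamer candidate had a change of -2.26 (adjusted p = 0.0184), with 826 scaled counts in bin 2 of the second sort against 81.65 to 168 in the other low-bin libraries. Its control fell by 1.75 as well (adjusted p = 0.00978), and the difference of -0.51 did not pass (edgeR, adjusted p = 0.696). Without that library its change was -1.09 (adjusted p = 0.177), and without bin 8 of the first or second sort it did not pass either (adjusted p = 0.0641 and 0.0596).

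Candidates with 2 or more ATTTA pentamers, at a median GC content of 32.3%, had a median change of 0.54, with 11 lower and 13 higher of 126 (8.73% and 10.3%). Against their controls 10 of 124 were lower and 1 higher (8.06% and 0.806%), at a median difference of -0.12. Controls with 2 or more pentamers by chance had 2 lower and 20 higher of 110, at a median change of 0.90. The list was thus on the high side by its own change and on the low side of its controls.

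Other elements of untranslated regions were mixed. The site of Pumilio proteins, repressors that bind TGTANATA, was in 99 pairs, 3 lower and 3 higher (3.03% each, close to the shares of all pairs), at a median difference of -0.44. Of these 99 differences 67 lay below 0, beside 1667 of 3646 over all pairs. The sorts gave -0.57 and -0.41 for this list, and gDNA gave -0.58, so few pairs were called while the median was low. The polyadenylation hexamer AATAAA was in 335 pairs, 11 lower and 11 higher (3.28% each, also close to them), at 0.16, and its variant ATTAAA in 204, 6 lower and 10 higher (2.94% and 4.90%), at 0.05. Runs of 8 or more U were on the high side, with 1 lower and 23 higher of 112 candidates (0.893% and 20.5%) at a median change of 0.96, and 1 lower and 11 higher of 112 pairs (0.893% and 9.82%) at a median difference of 0.57. The gDNA difference of the U-run list was -0.06, and of 63 controls with such a run by chance 0 were lower and 6 higher, at a median change of 0.87. A G-quadruplex pattern, 4 runs of G that can stack into a fold, was in 279 tested candidates, 22 lower and 11 higher (7.89% and 3.94%), and of its 277 pairs 8 were lower and 13 higher (2.89% and 4.69%), at a median difference of 0.11. The hexamers GTAAGT and GTGAGT, which resemble a 5' splice site, were in 199 tested candidates, 26 lower and 7 higher (13.1% and 3.52%), and in 258 tested controls, 37 lower and 14 higher (14.3% and 5.43%). Of the 197 pairs of these candidates 10 were lower and 8 higher (5.08% and 4.06%), at a median difference of -0.03.

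**Figure D3:**
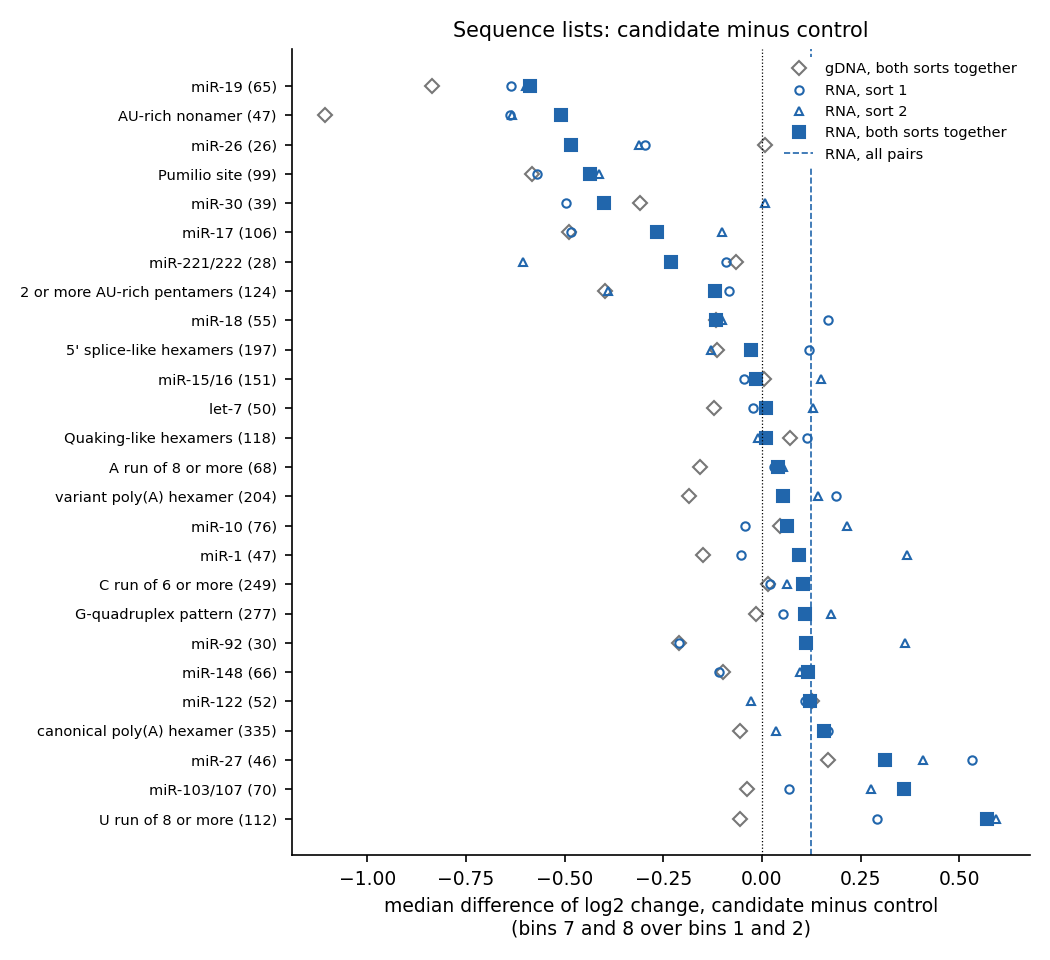
Median difference of the log2 change (bins 7 and 8 over bins 1 and 2) between candidate and scrambled control for each motif or seed list with at least 20 pairs, the number of pairs in parentheses. Filled squares are RNA of both sorts, open circles and triangles each sort, open diamonds gDNA, and the dashed line the RNA median of all pairs, 0.12. The miR-19 list (-0.59) and the AU-rich nonamer (-0.51) lie lowest in RNA and runs of U (0.57) highest.

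Base composition went with the RNA change in candidates and in controls alike. Candidates were divided into 4 groups of rising GC content. In group 1 (18.3% to 44.8% GC), 24 were lower and 115 higher of 886 tested, at a median change of 0.65, and its controls had 17 lower and 121 higher of 923, at 0.66. Group 2 had 53 lower and 53 higher candidates of 972, at 0.03. In group 3 (57.0% to 62.9%), 88 were lower and 23 higher of 892, at -0.21, with 100 and 10 of 895 controls. Group 4 (to 86.0%) had 82 lower and 21 higher of 910, at -0.20, with 95 and 23 of 921 controls. Against the matched controls the median differences were 0.01, 0.17, 0.13 and 0.16 from group 1 to group 4. Over 3604 candidates the change correlated with G content at r = -0.400 and rho = -0.396, and over 3687 controls at r = -0.449 and rho = -0.448, with all sequences sharing libraries and amplification. The gDNA change of the same candidates correlated with G content less strongly, at r = -0.146 and rho = -0.182. For the same controls these were r = -0.239 and rho = -0.263. In the group highest in G content, of 4 made in the same way, 132 of 868 candidates were lower and 12 higher, and 153 of 875 controls were lower and 13 higher.

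Sequences of low GC content were highest in bin 8. Candidates of group 1 had a median log2 scaled count of 6.38 and 6.76 in bin 1, 6.31 and 6.37 in bin 2, 6.82 and 6.73 in bin 7 and 7.38 and 7.47 in bin 8, and 5.80 and 5.83 in bin 3. Their sorts stood apart in bin 5, at 5.88 and 6.69. In gDNA the median change of group 1 was 0.07 in candidates and 0.17 in controls. Over whole libraries, the mean G content of the counted sequences was 28.56% and 28.03% in bin 1, 29.37% and 29.10% in bin 2, 27.94% and 27.96% in bin 7 and 26.64% and 26.45% in bin 8. The RNA groups did not overlap, with 28.77% ± 0.59 in the low bins against 27.25% ± 0.81 in the high bins (SD, n = 4 libraries, two-sided exact permutation p = 0.0286, the smallest that 4 against 4 allow, adjusted p = 0.257 over 15 comparisons). The 4 libraries on each side are 2 bins of 2 sorts. The SD therefore includes the gap between bins, and the 4 are not replicates of 1 condition. For GC content the difference was -2.14 percentage points (exact permutation p = 0.0857, adjusted p = 0.257). In gDNA the G content differed by -0.82 (exact permutation p = 0.0571, adjusted p = 0.257), and the RNA difference minus the gDNA difference was -0.70 (exact permutation p = 0.371, adjusted p = 0.428). Bin 8 was also the shallowest bin, and the part of depth in these values was not tested.

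**Figure D4:**
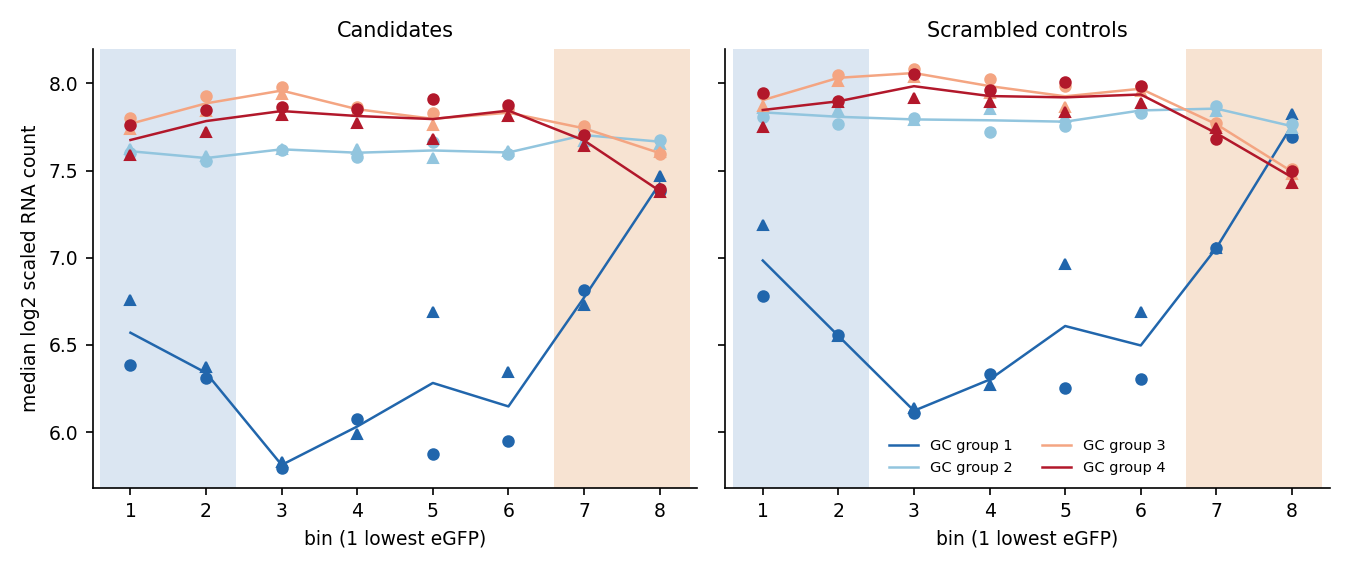
Median log2 scaled RNA count by bin for candidates (left) and scrambled controls (right) in 4 groups of GC content, from group 1 (lowest) to group 4. Circles and triangles are the first and second sort, lines join their mean, and bands mark the bins compared. Candidates of group 1 rise to 7.38 and 7.47 in bin 8, where those of group 4 are at 7.39 and 7.37.

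Scrambled controls also reached changes of this size. Among called controls with a mean of at least 50 counts, the 2 lowest were at -3.80 (SE 0.58, adjusted p = 0.000933 from edgeR) and -3.71 (SE 0.78, adjusted p = 0.00639), with GC contents of 65.6% and 69.9%. The first had 182 and 254 scaled counts in bin 1, 902.5 and 1264 in bin 2, 53.63 and 51.69 in bin 7 and 21.73 and 58.6 in bin 8, so bin 2 was its highest. The 2 highest under the same minimum, with GC contents of 30.6% and 34.4%, were at 3.30 (SE 0.78, adjusted p = 0.0119) and 3.25 (SE 0.55, adjusted p = 0.0017), while without that minimum controls reached 5.97. The former was high in bin 8 alone, with 678 and 1201 against 78.99 and 45.13 in bin 7 and 32.73 to 71.44 in the low bins. It did not pass without bin 8 of the second sort (adjusted p = 0.0596) or bin 2 of the first (adjusted p = 0.0537).

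The called sequences were followed into bins 3 to 6, which the calls did not use. Of 246 lower candidates with a value there, 210 also had less RNA in bins 5 and 6 than in bins 3 and 4, where 46.6% of all candidates were below 0, at a median of -0.50. Of 203 higher candidates 172 were above 0, at a median of 0.51, and among controls 235 of 279 and 159 of 185 kept their sign. No single sequence passed in these bins (0 of 7317, 0.0%, edgeR, lowest adjusted p = 0.0933), and 1034 had an unadjusted p under 0.05. Relative to their own mean over 16 RNA libraries, lower candidates had a median of 0.65 and 0.59 in bin 1 and 1.03 and 1.08 in bin 2, and higher candidates 0.79 and 0.76 in bin 7 and 1.68 and 1.64 in bin 8. The extremes were therefore bin 2 and bin 8. In bin 5 the higher candidates stood at -0.33 for the first sort and 0.21 for the other.

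**Figure D5:**
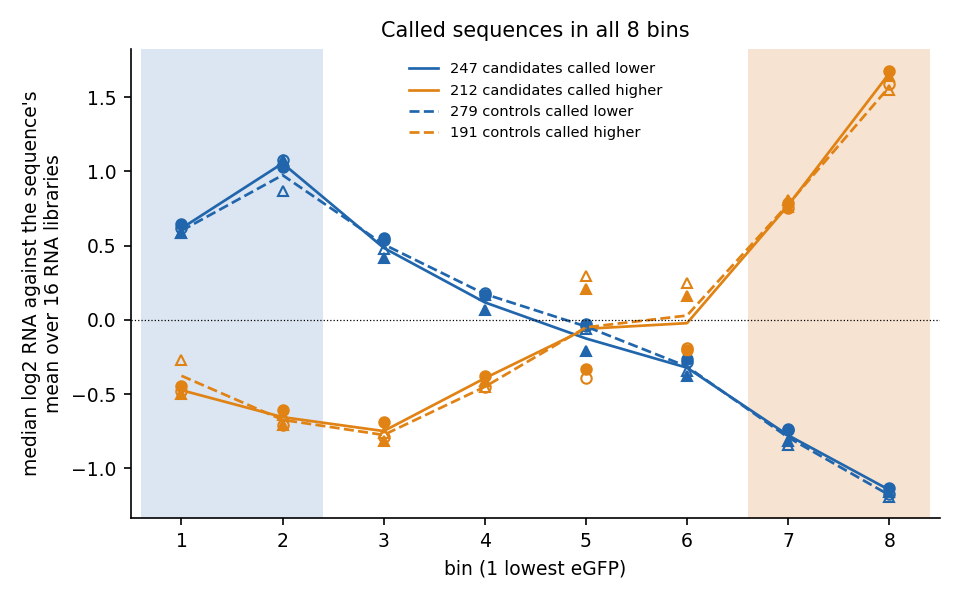
Median over called sequences of the log2 scaled RNA count minus the sequence's own mean over 16 RNA libraries, by bin, for candidates (solid lines, filled points) and scrambled controls (dashed lines, open points) called lower (blue) or higher (orange). Circles and triangles are the first and second sort, and bands mark the bins that made the calls. Lower candidates peak in bin 2 at 1.03 and 1.08, and higher candidates in bin 8 at 1.68 and 1.64.

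RNA of called sequences moved largely in the direction of gDNA of the same bins. Of the 247 lower candidates 238 also had a gDNA change below 0, at a median of -1.37 beside -1.82 in RNA, where 48.8% of all candidates were below 0. Of the 212 higher candidates 187 were above 0 in gDNA, at 0.93 beside 1.82. RNA and gDNA changes correlated at r = 0.591 and rho = 0.575 over 3604 candidates and at r = 0.626 and rho = 0.601 over 3687 controls, from the same sorted cells. The RNA change minus the gDNA change passed in 0 of 7377 sequences (0.0%, edgeR, lowest adjusted p = 0.179), and 569 had an unadjusted p under 0.05. A change of RNA beyond that of gDNA was not detectable for single sequences with these libraries.

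The sorts gave like changes, which correlated at r = 0.681 and rho = 0.646 over 7341 sequences. All 928 called sequences with a value in both sorts had the same sign in each, which calling them on both sorts favours. The difference between sorts passed in 0 of 7378 sequences (0.0%, edgeR, lowest adjusted p = 1.00), 157 had an unadjusted p under 0.05, and DESeq2 called 1. The gap between the bins of a group counts as spread in this test, and bins of 1 group were less alike than sorts of 1 bin. Its lack of calls therefore does not show that the sorts were alike.

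Candidates cut from neighbouring windows of a transcript overlap by a median of 93 bases. Over 199 such pairs of windows the changes correlated at r = 0.379 and rho = 0.374, beside r = 0.21 for the controls of the same windows, which share composition without order. Of these pairs, 1 was called lower in both windows, 2 were called higher in both and 1 in opposite directions. The first window was called in 23 of the 199 pairs and the second in 20, and the number of joint calls was not tested against these shares. Over 90 pairs 2 windows apart, 5 of them overlapping, r was 0.218 for candidates and 0.104 for their controls. Over 66 pairs 3 windows apart, none overlapping, r was 0.29 for candidates and -0.00 for their controls.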

How the data were processed

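For the RNA libraries, per the study's methods, adapters were trimmed with cutadapt, molecular identifiers were moved to read names, reads were aligned to the designed fragments with BWA and tallied by featureCounts. The processing notes of the submitters also list SAMtools. Versions are not given in the sources used here, nor whether reads sharing an identifier were merged. The authors deposited raw counts for each sequence in each library. These counts were tested with edgeR 4.0.16 (robust quasi-likelihood fit) in R 4.3.3, with libraries scaled by their median, a mean of at least 10 counts and Benjamini-Hochberg adjustment over all sequences or pairs. Printed scaled counts are brought to the geometric mean of the 8 medians, so in bin 8, the shallowest, they are above the raw counts. Pairs were tested as the interaction of sequence and bin group, and RNA minus gDNA as that of molecule and bin group. Scripts were tested on simulated data. Alternatives were other scalings, minimums and bin contrasts, limma 3.58.1, DESeq2 1.42.0, a replicate block, and libraries or sorts left out. Python 3.11.15 with scipy 1.17.1 was used for the rest.

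Members, lists and the naming rule were chosen with earlier results of these data known, and the G content groups, composition tests and the list with both seeds after values were seen. Named were the 2 lowest and 2 highest differences among called pairs with means of at least 50 counts and no overlap of the candidate's groups, and, with the same minimum, the 2 lowest called candidates of 5 lists (nonamer, miR-17, miR-19, miR-30, miR-92) and the 2 lowest and 2 highest called controls. The other 11 lists searched had median differences between -0.23 and 0.49, and miR-124 was not analysed here. Replicate numbers were not taken to pair libraries, since deviations of the sorts correlated between bins at only 0.021 to 0.11. The mutagenesis screen was not used here. Amplification error is not covered by the p-values.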

Additional observations from a re-analysis of the deposited data

Results flagged for a closer look

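In 3 of 72 groups of 4 libraries examined, 1 library stood apart from the other 3, and chance sets apart about 1 group in 20. The control of ENST00000393409_part_27 had a scaled count of 698 in bin 7 of the first sort against 308 to 315 in the other high-bin libraries, all above its low-bin counts. ENST00000370888_part_4 had 97.81 in bin 1 of the second sort against 67.59 to 71.1 in the other low-bin libraries, still below its high-bin counts. The second candidate with an AU-rich nonamer had 826 in bin 2 of the second sort against 81.65 to 168 in the other low-bin libraries.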

How the results depend on the processing

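No sequence or pair called in the main setting was called in the opposite direction under any alternative run. Lower and higher sequences numbered 599 and 364 with TMM scaling, 456 and 499 with total count scaling and 511 and 403 with limma. With each bin as a level of its own they were 948 and 971, and pairs 266 and 361, since the gap between the bins of a group then no longer counts as spread. Lower and higher sequences were 785 and 654 with DESeq2, 543 and 623 with bin 1 against bin 8, and 781 and 660 with a slope over 16 RNA libraries. Lower and higher pairs were 190 and 258 with DESeq2 and 187 and 248 with the slope. Leaving out a library or a sort gave 19 to 572 lower and 9 to 523 higher sequences, and 3 to 128 lower and 2 to 158 higher pairs, the fewest with 1 sort. With the replicate block, 477 sequences were lower and 372 higher, and 93 pairs lower and 122 higher, and the tests of RNA minus gDNA and of the middle bins stayed at 0 calls. In the difference between sorts DESeq2 called 1 sequence lower. The second nonamer candidate's difference from its control, -0.51 (not called), was 0.11 with limma and 0.69 with bin 1 against bin 8, and between -1.55 and 0.95 with a library or sort left out (0.51 without bin 2 of the second sort). With bin 2 against bin 7, the second miR-92 candidate's change was 0.11 and its difference from the control 0.30. The cause of these moves was not tested. Depth limits bin 8 most, at medians of 120 and 89 counts.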
